A study of Mus musculus with 12 samples.

Results

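The chemosensory receptor genes of the Vmn2r, Taar, Tas1r and Tas2r families were followed across muscle precursor cells and muscle of mice lacking Lbr or Lmna. The genes were chosen by symbol alone, as every row of the expression table whose name begins with Vmn2r, Taar, Tas1r or Tas2r and a number. This gave 173 of 22552 genes, of which 120 were Vmn2r, 15 Taar, 3 Tas1r and 35 Tas2r genes.

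Vmn2r genes encode type 2 vomeronasal receptors, which detect pheromones in sensory neurons of the vomeronasal organ. Taar genes encode trace-amine-associated receptors, most of which serve in the olfactory epithelium. Tas1r proteins pair to form the sweet and umami receptors of taste cells, and Tas2r proteins are the bitter receptors. Most of these genes lie in clusters of related copies and are silent outside their sensory cells. The lamin B receptor, encoded by Lbr, is an inner nuclear membrane protein, and lamins A and C, encoded by Lmna, are filament proteins of the nuclear lamina. Both hold silent chromatin at the nuclear edge, so the question asked of these genes was whether they became detectable when either protein was missing.

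RNA sequencing covered 12 samples, 6 of cultured myoblasts and 6 of striated muscle, all from C57Bl/6 mice. The groups were Lbr-knockout myoblasts (2 samples), wild-type myoblasts of the Lbr litter (1 sample), Lmna-knockout myoblasts (2), wild-type myoblasts of the Lmna litter (1), Lbr-knockout muscle (2), Lmna-knockout muscle (2) and wild-type muscle (2). Knockouts were homozygous offspring of heterozygous parents, and the wild types are described as littermates. The labels name a litter for the myoblast wild types only. Muscle has a single wild-type group, set against both knockouts, and its litter is not given. Litter and genotype therefore cannot be told apart in the muscle comparisons. The labels give neither age nor sex, nor which muscle was taken, nor which stretch of Lbr or Lmna was deleted. The deposited table holds a single FPKM column per group (sequenced fragments per gene, corrected for transcript length and library size), so no value has a replicate error and no 2-group difference has a p-value. Myoblast and muscle libraries were made with different kits (NuGEN Ovation and NuGEN complete RNA-Seq), so tissue, kit and depth cannot be told apart.

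The knocked-out genes were checked first. Lbr was at 7.71 FPKM in Lbr-knockout myoblasts, against 16.1 FPKM in their wild-type littermates, and at 1.87 FPKM in Lbr-knockout muscle, against 11.8 FPKM in wild-type muscle. Lmna was at 18.5 FPKM in Lmna-knockout myoblasts, against 147 FPKM in their wild-type littermates, and at 22.6 FPKM in Lmna-knockout muscle, against 59.5 FPKM in wild-type muscle. Each was thus lower by 2-fold or more in its own knockout. The muscle columns carried the muscle actin gene Acta1 at 13887 to 17215 FPKM. The myoblast columns held the myogenic factor Myod1 at 2.09 to 5.51 FPKM and the satellite cell factor Pax7 at 0.152 to 0.273 FPKM. Both were higher in the muscle columns, Myod1 at 16.4 to 18.1 FPKM and Pax7 at 1.28 to 2.10 FPKM. These genes therefore do not set the myoblast columns apart. In the myoblast columns 5 macrophage markers summed to 27.1 to 105 FPKM.

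The promoters of 4 transcription starts are shown because they belong to the genes on which the levels below turn: Tas1r3 and Tas2r137 are the genes above 1 FPKM in any column, and Vmn2r29, which has 2 annotated starts, is the other gene besides Tas1r3 above 0.1 FPKM in all 7 columns. Each runs 5′ to 3′ on the gene's strand, 250 bases before and 50 bases after the start, from RefSeq on GRCm38.p6, with each CG dinucleotide in capitals. They lie at chr4:155863304-155863603 on the minus strand (Tas1r3), chr6:40490988-40491287 on the plus strand (Tas2r137), and chr7:7278240-7278539 and chr7:7247279-7247578 on the minus strand (Vmn2r29).
Tas1r3: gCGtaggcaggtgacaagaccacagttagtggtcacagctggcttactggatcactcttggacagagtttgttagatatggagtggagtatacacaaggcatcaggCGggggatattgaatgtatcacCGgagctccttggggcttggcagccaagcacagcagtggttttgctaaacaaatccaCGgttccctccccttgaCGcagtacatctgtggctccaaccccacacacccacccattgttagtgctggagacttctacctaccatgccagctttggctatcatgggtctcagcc
Tas2r137: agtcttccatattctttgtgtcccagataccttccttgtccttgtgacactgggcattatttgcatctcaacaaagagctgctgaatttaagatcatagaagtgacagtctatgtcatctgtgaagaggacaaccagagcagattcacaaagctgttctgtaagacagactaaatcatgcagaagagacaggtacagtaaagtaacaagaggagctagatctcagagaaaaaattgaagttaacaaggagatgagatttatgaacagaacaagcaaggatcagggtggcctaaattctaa
Vmn2r29, first start: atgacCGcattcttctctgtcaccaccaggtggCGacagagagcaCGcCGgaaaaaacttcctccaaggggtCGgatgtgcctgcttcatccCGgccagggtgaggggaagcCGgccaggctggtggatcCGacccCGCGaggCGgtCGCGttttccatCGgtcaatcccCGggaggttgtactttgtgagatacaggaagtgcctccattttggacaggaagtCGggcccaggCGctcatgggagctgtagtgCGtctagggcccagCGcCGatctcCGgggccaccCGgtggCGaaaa
Vmn2r29, second start: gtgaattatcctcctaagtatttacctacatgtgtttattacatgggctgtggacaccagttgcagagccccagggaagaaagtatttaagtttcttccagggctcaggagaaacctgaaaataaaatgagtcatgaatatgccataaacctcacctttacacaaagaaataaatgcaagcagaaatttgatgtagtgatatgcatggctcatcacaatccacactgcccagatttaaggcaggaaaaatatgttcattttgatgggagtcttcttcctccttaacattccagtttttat

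The first Vmn2r29 start stands apart from the others in its CG content: it holds 23 CG dinucleotides, against 5 at Tas1r3 and 0 at Tas2r137 and at the second Vmn2r29 start. Promoters were found for 156 of the 173 genes, 157 promoters in all, and their median was 1 CG. The median over the 18428 promoters matched to the table was 14. The first Vmn2r29 start was the single receptor promoter with at least 10 CG (0.637%), a count reached by 58.8% of all promoters matched to the table. A CG content this low was shared by the olfactory receptor (Olfr) promoters and by those of the Vmn1r genes, the type 1 vomeronasal receptors, each with a median of 1. The median GC content was 38% at the receptor promoters and 57% at all promoters. The letters CANNTG, the E-box bound by myogenic factors, occurred on either strand in 92.4% of receptor promoters and 68.7% of all promoters, and TATAAA in 26.1% and 12.2%. These matches describe the sequence and are not evidence of binding.

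The receptor genes were close to silent in every column. None of the 173 exceeded 1 FPKM in any myoblast column, and above that level there was 1 gene in Lbr-knockout muscle, 2 genes in Lmna-knockout muscle and 1 gene in wild-type muscle. Of all 22552 genes, 11315 to 12256 exceeded 1 FPKM in a column. Above 0.1 FPKM there were 8 receptor genes (4.62%) in Lbr-knockout myoblasts and 6 (3.47%) in their wild type, and 3 (1.73%) in Lmna-knockout myoblasts and 3 (1.73%) in theirs. In muscle 92 (53.2%) exceeded 0.1 FPKM in Lbr knockouts and 101 (58.4%) in Lmna knockouts, against 77 (44.5%) in wild type. The share over all genes moved in the same order in muscle, with 77.8% in Lbr knockouts and 80.0% in Lmna knockouts, against 75.6% in wild type.

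**Figure D1:**
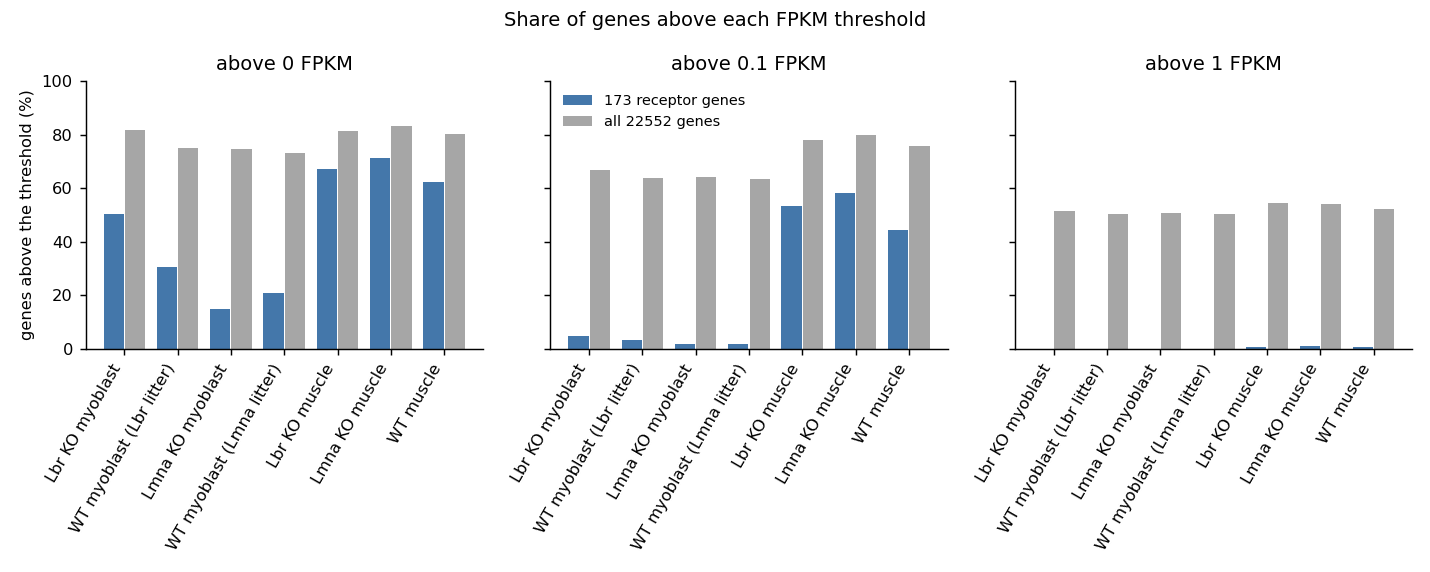
Bars give the percentage of the 173 receptor genes (blue) and of all 22552 genes (grey) above 0, 0.1 and 1 FPKM in each group column. Receptor genes above 0.1 FPKM made up 1.73% to 4.62% in myoblasts, and 44.5% to 58.4% in muscle.

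Values above 0 were more frequent in the Lbr-knockout myoblasts. There 87 receptor genes had a value above 0, against 53 in their wild-type littermates. The Lmna-knockout myoblasts had 26, against 36 in theirs. Each knockout myoblast column stands for 2 samples and each wild-type one for 1. Genotype and number of samples therefore cannot be told apart in these myoblast counts. In muscle the counts were 116 in Lbr knockouts and 123 in Lmna knockouts, against 108 in wild type. Over all genes the values above 0 also came to a higher count in Lbr-knockout myoblasts, with 18415 against 16943, whereas in Lmna-knockout myoblasts they came to 16798 against 16532. Thus the receptor genes and the whole table ran in opposite directions in the Lmna-knockout myoblasts. The summed FPKM of the 173 genes was 4.18 in Lbr-knockout myoblasts and 2.60 in their wild type, 1.24 in Lmna-knockout myoblasts and 1.97 in theirs, and 26.9 in Lbr-knockout and 30.1 in Lmna-knockout muscle, against 23.6 in wild-type muscle.

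Across the 7 columns, 7 receptor genes were listed at 0 throughout (Tas2r103, Tas2r105, Tas2r106, Tas2r110, Tas2r113, Vmn2r65 and Vmn2r123). Another 7 were above 0 throughout (Tas1r1, Tas1r3, Vmn2r1, Vmn2r3, Vmn2r29, Vmn2r46 and Vmn2r50). Of all 22552 genes, 1270 were listed at 0 throughout and 14337 were above 0 throughout. Values above 0 in muscle only were found for 57 receptor genes, against 7 with values in myoblasts only. Over all 22552 genes these counts were 1591 and 828. In muscle 26 of the receptor genes exceeded 0.1 FPKM in all 3 columns, 20 of them Vmn2r genes, as did 15278 of all genes.

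**Figure D2:**
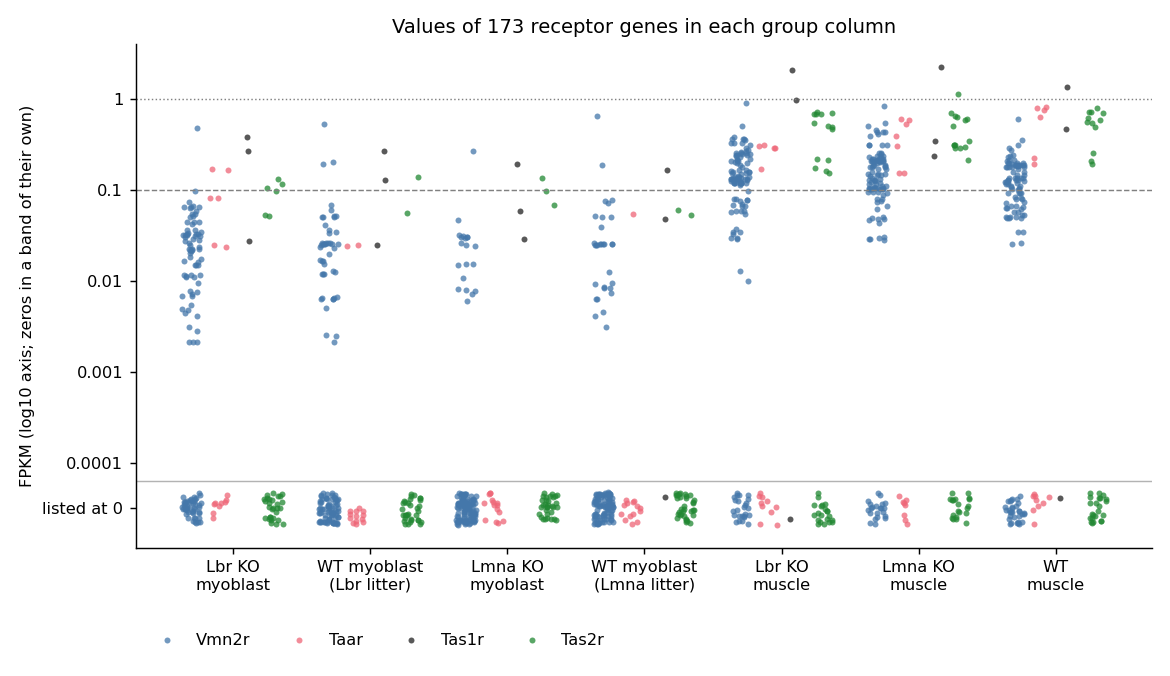
Each point is a receptor gene in a group column, coloured by family, with FPKM on a log10 axis and the genes listed at 0 in a band at the bottom. The dashed line marks 0.1 FPKM and the dotted line 1 FPKM. Most myoblast values lie under 0.1 FPKM, and 1 gene in Lbr-knockout muscle, 2 in Lmna-knockout muscle and 1 in wild-type muscle lie above 1 FPKM.

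Most of these values correspond to about 1 sequenced fragment. The FPKM of 1 fragment on 1 kilobase of transcript was estimated from low values of genes with 1 transcript. It was read as the lowest prominent peak of FPKM times transcript length. For the members it was applied to coding lengths instead, so their fragment numbers are approximate. The FPKM of 1 fragment was 0.0846 in Lbr-knockout and 0.0822 in Lmna-knockout myoblasts, against 0.0620 and 0.0606 in the wild types of the Lbr and Lmna litters. It was 0.311 in Lbr-knockout and 0.313 in Lmna-knockout muscle, against 0.241 in wild-type muscle. A threshold of 0.1 FPKM therefore lies below a single fragment for a Tas2r gene in every muscle column. For a Vmn2r gene of median coding length, 1 fragment was 0.121 FPKM in Lbr-knockout and 0.122 FPKM in Lmna-knockout muscle, against 0.0941 FPKM in wild-type muscle. By this estimate, a single fragment on such a gene passes 0.1 FPKM in either knockout muscle and not in wild-type muscle. The part of this in the counts of 92 and 101 genes, against 77, was not tested. On the coding lengths of 170 members, genes above 0 had a median of 0.815 estimated fragments in Lbr-knockout myoblasts and 1.02 in their wild type, 0.830 in Lmna-knockout myoblasts and 1.07 in theirs, and 1.13 in Lbr-knockout and 1.20 in Lmna-knockout muscle, against 1.41 in wild-type muscle. At least 3 estimated fragments were reached by 13 receptor genes in Lbr-knockout and 15 in Lmna-knockout muscle, against 16 in wild-type muscle. In myoblasts the same count was 4 in Lbr knockouts and 7 in their wild type, and 2 in Lmna knockouts and 6 in theirs.

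**Figure D3:**
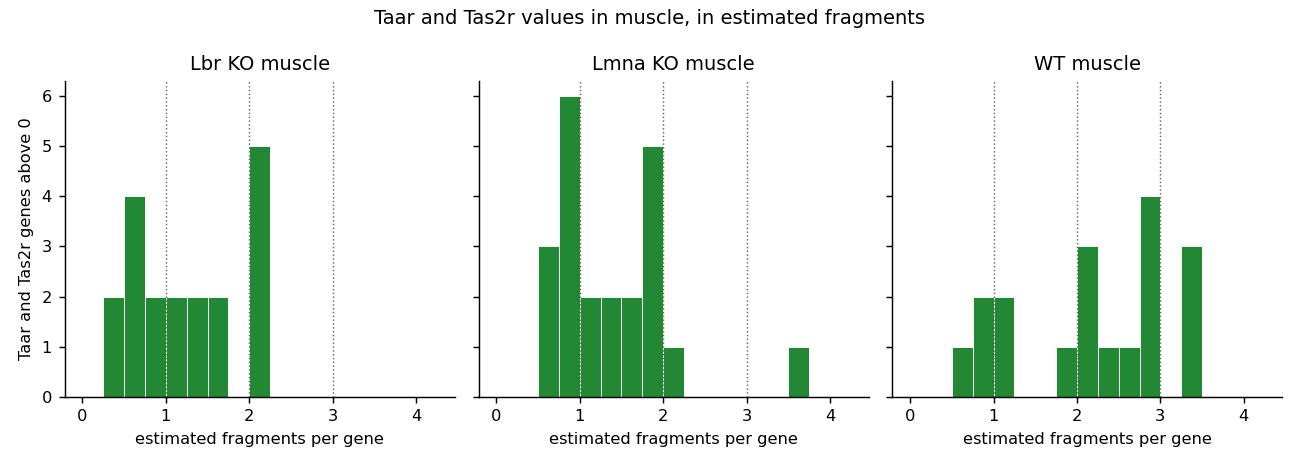
Histograms of the estimated fragments behind each Taar and Tas2r value above 0, in Lbr-knockout, Lmna-knockout and wild-type muscle. Dotted lines mark 1, 2 and 3 fragments. The highest value is that of Tas2r137 in Lmna-knockout muscle, at 3.63 estimated fragments.

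Among the taste receptors of the Tas1r family, Tas1r3, the subunit shared by the sweet and umami receptors, had the highest value of all members in each muscle column. In each myoblast column Vmn2r29 was higher. Tas1r3 was at 0.269 FPKM in Lbr-knockout myoblasts and 0.268 FPKM in their wild type. In Lmna-knockout myoblasts it was at 0.194 FPKM, against 0.164 FPKM in their wild type. In muscle it was at 2.07 FPKM in Lbr knockouts and 2.24 FPKM in Lmna knockouts, against 1.34 FPKM in wild type. The muscle columns were thus all higher than the myoblast columns, and both knockouts lay above wild-type muscle by a log2(FPKM + 0.1) difference of 0.59 for Lbr and 0.70 for Lmna, under the 2-fold mark. Its exons overlap those of Dvl1, a Wnt pathway gene on the opposite strand, which was at 23.0 FPKM in Lbr-knockout and 23.5 FPKM in Lmna-knockout muscle, against 21.5 FPKM in wild-type muscle. Whether the counting used strand is not given in the sources used here, so reads of Tas1r3 and Dvl1 cannot be told apart.

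Tas1r1, the partner of Tas1r3 in the umami receptor, was at 0.376 FPKM in Lbr-knockout myoblasts, against 0.126 FPKM in their wild type, a log2 difference of 1.07. It was the one gene called higher in Lbr-knockout myoblasts that had a value above 0 in the wild type, with 11.2 estimated fragments against 5.15. In Lmna-knockout myoblasts it was at 0.0591 FPKM, against 0.0476 FPKM in their wild type. In muscle it was at 0.962 FPKM in Lbr knockouts and 0.234 FPKM in Lmna knockouts, against 0.465 FPKM in wild type, so that the knockouts lay on opposite sides of the wild type with log2 differences of 0.91 and -0.76. Tas1r2, the partner in the sweet receptor, did not exceed 0.1 FPKM outside Lmna-knockout muscle, where it was at 0.347 FPKM.

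Of the bitter receptors, Tas2r137 had the highest value, 1.13 FPKM in Lmna-knockout muscle, and was listed at 0 in the 6 other columns. This was the single receptor gene that went above 1 FPKM in a knockout from 0.1 FPKM or less in the wild type, and it rests on about 3.63 fragments. Tas2r118 at 0.697 FPKM and Tas2r136 at 0.676 FPKM had values in Lbr-knockout muscle alone. Tas2r125, at 0.598 FPKM, had one in Lmna-knockout muscle alone. Tas2r123 at 0.690 FPKM and Tas2r139 at 0.618 FPKM had them in wild-type muscle alone. Tas2r genes with values in a single muscle column were therefore found in the wild type as well as in each knockout.

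Among the named bitter receptors, 4 were listed at 0 in wild-type muscle and above 0 in both knockouts. Tas2r117 was at 0.680 FPKM in Lbr-knockout and 0.287 FPKM in Lmna-knockout muscle, Tas2r131 at 0.671 and 0.311 FPKM, Tas2r120 at 0.172 and 0.633 FPKM, and Tas2r108 at 0.484 and 0.506 FPKM. Tas2r140 was at 0.505 FPKM in Lbr-knockout muscle and listed at 0 in Lmna-knockout muscle, against 0.722 FPKM in wild type. Tas2r143 was at 0.213 FPKM in Lbr-knockout and 0.705 FPKM in Lmna-knockout muscle, against 0.785 FPKM in wild type. Its neighbour Tas2r135 was at 0.462 and 0.642 FPKM in the Lbr and Lmna knockouts, against 0.722 FPKM in wild-type muscle. Tas2r107 was at 0.717 and 0.299 FPKM in the Lbr and Lmna knockouts, against 0.578 FPKM in wild type. These genes rested on 0.488 to 2.88 estimated fragments in the muscle columns in which they had a value. The opposite pattern also occurred: Tas2r115, Tas2r122, Tas2r123, Tas2r130, Tas2r134 and Tas2r139 were called lower in both knockout muscles. Both knockouts were set against the same wild-type column.

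**Figure D4:**
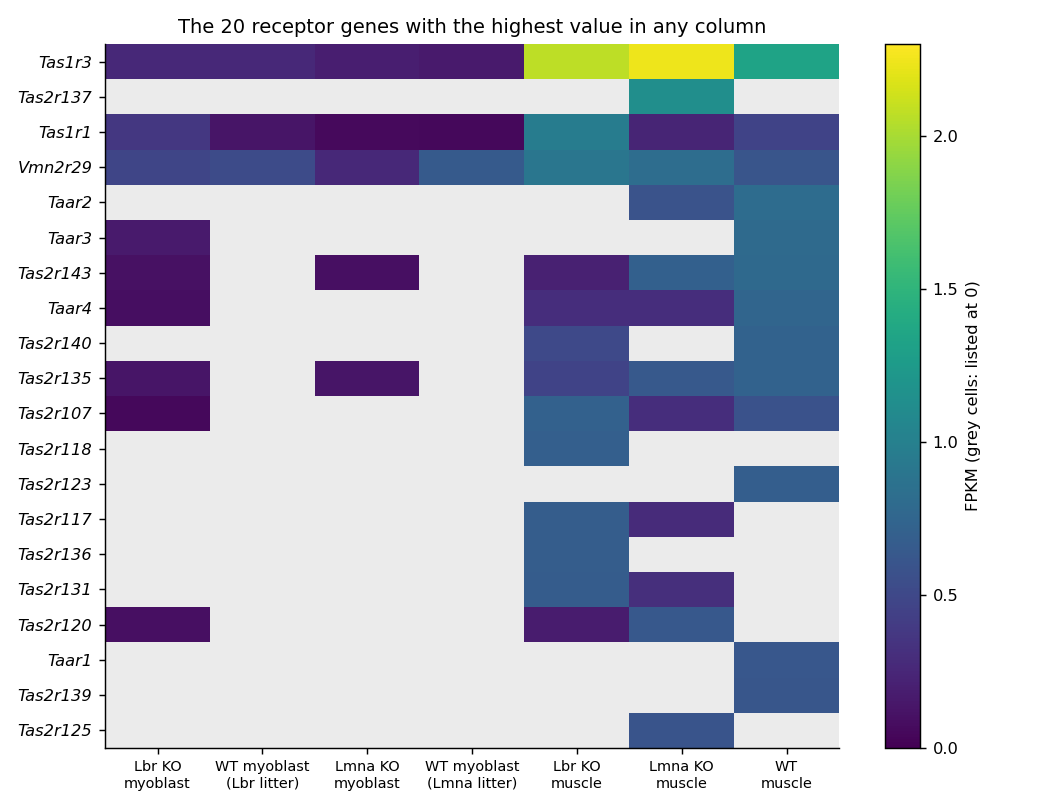
FPKM in each group column (colour scale from 0 to above 2 FPKM) of the 20 receptor genes with the highest value in any column, with grey for genes listed at 0. Tas1r3, Tas1r1 and Vmn2r29 have values in all 7 columns, and Tas2r137 has a value of 1.13 FPKM in Lmna-knockout muscle and is at 0 elsewhere.

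Of the trace-amine receptors, Taar1, Taar2, Taar3 and Taar4 were lower in both knockout muscles than in wild-type muscle. Taar1, the receptor for trace amines studied in the brain, was at 0.624 FPKM in wild-type muscle and listed at 0 in the 6 other columns. Taar2 was listed at 0 in Lbr-knockout and at 0.589 FPKM in Lmna-knockout muscle, against 0.810 FPKM in wild type. Taar3, an amine receptor of the nose, was listed at 0 in both knockout muscles, against 0.798 FPKM in wild type. Taar4, a nasal receptor for phenylethylamine, was at 0.299 FPKM in Lbr-knockout and 0.301 FPKM in Lmna-knockout muscle, against 0.754 FPKM in wild type, which is 1.00 fragment in each knockout and 3.25 in the wild type. Taar7a ran the other way, with 0.289 FPKM in Lbr-knockout and 0.596 FPKM in Lmna-knockout muscle, and was listed at 0 in wild type. It shares 38.6% of its 50-base words with other genes, with Taar7b the closest. The summed FPKM of the 15 Taar genes was 1.36 in Lbr-knockout and 2.71 in Lmna-knockout muscle, against 3.40 in wild-type muscle.

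In myoblasts, Taar3 was at 0.167 FPKM and Taar6 at 0.165 FPKM in Lbr knockouts, and both were listed at 0 in the other 3 myoblast columns. Each corresponds to about 2 fragments, 2.04 for Taar3 and 2.01 for Taar6. All 15 Taar genes were listed at 0 in Lmna-knockout myoblasts.

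Among the vomeronasal receptors, Vmn2r29 had the highest value in every column. It was at 0.480 FPKM in Lbr-knockout myoblasts and 0.525 FPKM in their wild type. Lmna-knockout myoblasts had 0.267 FPKM, against 0.649 FPKM in their wild type, a log2 difference of -1.03. In muscle Vmn2r29 was at 0.900 FPKM in Lbr knockouts and 0.825 FPKM in Lmna knockouts, against 0.605 FPKM in wild type. It shares 78.0% of its 50-base words with other genes, and its exons overlap those of Gm45844, so its level is uncertain. Vmn2r46, called lower in the same comparison, was at 0.0263 FPKM in Lmna-knockout myoblasts, against 0.189 FPKM in their wild type, and at 0.0640 FPKM in Lbr-knockout myoblasts, against 0.191 FPKM in theirs. In muscle it was at 0.383 FPKM in Lbr knockouts and 0.255 FPKM in Lmna knockouts, against 0.123 FPKM in wild type. It shares 97.8% of its words, with Gm3972 the closest.

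Over all Vmn2r genes, these included, values above 0 were low. They had a median of 0.0228 FPKM over 72 genes in Lbr-knockout myoblasts and 0.0249 FPKM over 46 genes in their wild type, and of 0.0243 FPKM over 20 genes in Lmna-knockout myoblasts and 0.0251 FPKM over 31 genes in theirs. In muscle the median was 0.137 FPKM over 95 genes in Lbr knockouts and 0.147 FPKM over 98 genes in Lmna knockouts, against 0.125 FPKM over 88 genes in wild type. In myoblasts the number of Vmn2r genes with a value thus varied more between columns than the median of those that had one. Of the 120 Vmn2r genes, 27 share more than 50% of their 50-base words with other genes, and so do 5 Taar genes, while 31 of the 35 Tas2r genes share none.

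Differences were called where log2(FPKM + 0.1) differed by at least 1, a 2-fold change on that scale, which a gene listed at 0 in one column passes once it reaches 0.1 FPKM in the other. In Lbr-knockout myoblasts, 6 receptor genes rose (Taar3, Taar6, Tas1r1, Tas2r108, Tas2r135 and Tas2r143) and 1 fell (Tas2r114). That is 3.47% and 0.578% of the members, while 6.29% of all genes rose and 1.29% fell. Of the 6, 5 were listed at 0 in the wild type, with 0.104 to 0.167 FPKM in the knockout. Tas2r135 was at 0.131 FPKM and Tas2r108 at 0.115 FPKM in the knockout, and Tas2r114, listed at 0 there, was at 0.140 FPKM in the wild type. Set against Lmna-litter wild-type myoblasts instead, 5 genes rose and 0 fell, with 5.98% and 1.61% of all genes.

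In Lmna-knockout myoblasts, 1 receptor gene rose (Tas2r135, at 0.134 FPKM and listed at 0 in the wild type) and 2 fell (Vmn2r29 and Vmn2r46), while 2.66% of all genes rose and 2.02% fell. Set against Lbr-litter wild-type myoblasts instead, 1 rose and 3 fell, with 5.55% and 3.57% of all genes. Between the Lbr-litter and Lmna-litter wild types themselves, 1 receptor gene was higher (Tas2r114) and 0 lower, with 3.08% and 3.77% of all genes. With the pseudocount of 0.1, the share of receptor genes that rose was below that of all genes in both knockout comparisons. With a pseudocount of 0.01 this turned round for the Lbr knockout, where 50 receptor genes (28.9%) and 16.4% of all genes were higher, and held for the Lmna knockout, with 14 (8.09%) and 8.42%. Lbr-knockout myoblasts had 4 genes higher and 0 lower than Lmna-knockout myoblasts, with 5.88% and 2.5% of all genes.

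Genes that were silent in the wild type were also counted apart. Of 167 receptor genes at or under 0.1 FPKM in the Lbr-litter wild type, 5 (2.99%) exceeded 0.1 FPKM in Lbr-knockout myoblasts, against 13.7% of all 8139 such genes. Of 170 in the Lmna-litter wild type, 1 (0.588%) exceeded it in Lmna-knockout myoblasts, against 8.38% of all such genes. None of these exceeded 1 FPKM. With the threshold at 0, 50 of 120 receptor genes (41.7%) listed at 0 in the wild type had a value in Lbr-knockout myoblasts, close to the 38.9% of all genes. In Lmna-knockout myoblasts it was 15 of 137 (10.9%), against 19.6% of all genes. Here too each knockout column stands for 2 samples and each wild-type column for 1. Beside the result in Lbr-knockout myoblasts, all 5 macrophage markers were higher there than in the wild type, with a summed 102 FPKM against 27.1 FPKM. The Lbr-litter wild type was the low column, as the sum was 84.1 FPKM in Lmna-knockout myoblasts and 105 FPKM in their wild type. In the Lbr knockouts 6 of 8 muscle lineage markers also rose. In Lmna-knockout myoblasts 3 of those 8 fell. The part of cell composition in the receptor values was not tested, and fewer cells of a type cannot be told apart from less RNA per cell in bulk samples.

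A limma fit to the 4 columns of myoblasts, which treats the wild types of both litters as a single group, gave 35 receptor genes with a Benjamini-Hochberg adjusted p under 0.05 for the Lbr knockout and 10 for the Lmna knockout, with 7.68% and 3.48% of all genes. Of these, 35 and 9 were listed at 0 in both wild types, where the measured spread is 0, so they were not read as calls. When only genes averaging 0.1 FPKM or more were fitted, 4 receptor genes remained in the fit and 0 passed the adjusted threshold in either comparison. At an unadjusted p under 0.05 there was 1 in each, Tas1r1 in the Lbr and Vmn2r46 in the Lmna comparison, and across the 14627 genes of that fit 6 and 2 passed the adjusted threshold.

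In muscle, receptor genes were called in both directions. In Lbr-knockout muscle 37 rose (21.4%) and 31 fell (17.9%), while 10.2% of all genes rose and 5.99% fell. In Lmna-knockout muscle 46 rose (26.6%) and 25 fell (14.5%), while 12.3% of all genes rose and 5.84% fell. The median log2 difference of the receptor genes was 0 in the Lbr and 0.13 in the Lmna comparison, and over all genes it was 0.06 and 0.10. Both comparisons use the same wild-type muscle column. The knockout muscles, which share no column, were also set against each other: 32 receptor genes were higher and 38 lower in Lbr-knockout than in Lmna-knockout muscle, with 7.01% and 9.12% of all genes.

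Most muscle calls set a value against a listed 0. Of the 37 that rose in Lbr-knockout muscle, 30 were listed at 0 in wild type, and of the 31 that fell, 22 were listed at 0 in the knockout. In the Lmna comparison these were 36 of 46 and 22 of 25. The genes that rose had a median of 0.219 FPKM in Lbr-knockout and 0.216 FPKM in Lmna-knockout muscle, and those that fell had a median of 0.225 and 0.235 FPKM in wild-type muscle. Where the higher value rested on at least 3 estimated fragments, an alternative added after the data were seen, 5 rose and 9 fell in Lbr-knockout muscle and 7 rose and 8 fell in Lmna-knockout muscle. The 26 and 27 members left had passed through the column in which they were high, and 3 fragments are a lower FPKM in wild-type muscle than in the knockouts, so the balance of rises and falls was not read. Over all genes under that requirement 5.09% rose and 2.64% fell in the Lbr comparison, and 6.45% rose and 3.15% fell in the Lmna comparison.

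By family, 25 Vmn2r genes rose (20.8%) and 17 fell (14.2%) in Lbr-knockout muscle. In Lmna-knockout muscle 30 rose (25%) and 13 fell (10.8%). Of the Tas2r genes 8 rose (22.9%) and 8 fell (22.9%) in Lbr knockouts, and 11 rose (31.4%) and 8 fell (22.9%) in Lmna knockouts. Of the Taar genes 4 rose (26.7%) and 6 fell (40%), and 4 rose (26.7%) and 4 fell (26.7%). Of all genes 10.2% rose and 5.99% fell in the Lbr comparison, and 12.3% and 5.84% in the Lmna comparison. The Vmn2r genes that rose in Lmna knockouts include Vmn2r1, at 0.501 FPKM against 0.0742 FPKM in wild type and 0.129 FPKM in Lbr knockouts. They also include Vmn2r116, a receptor for the male pheromone ESP1, at 0.208 FPKM against 0.0494 FPKM in wild type and listed at 0 in Lbr knockouts. Vmn2r84 was at 0.50 FPKM in Lbr-knockout and 0.185 FPKM in Lmna-knockout muscle, against 0.0348 FPKM in wild type. These Vmn2r genes, Tas1r2 and the genes named in lists of calls were picked after their values were seen.

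**Figure D5:**
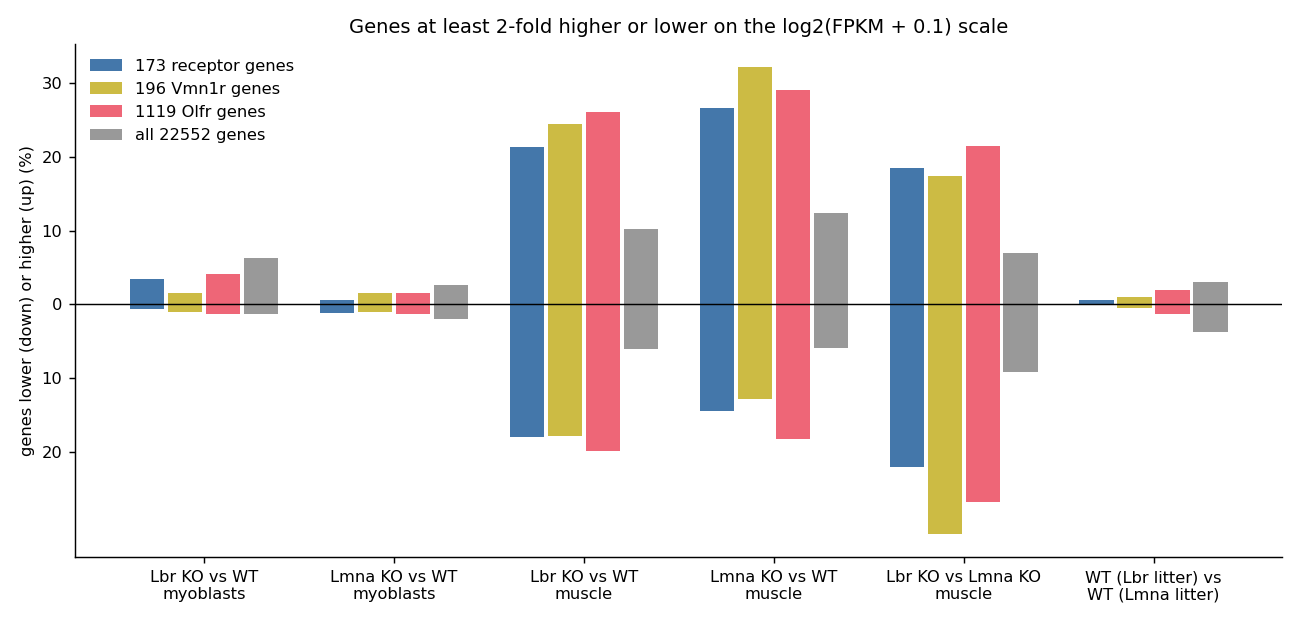
Percentage of genes at least 2-fold higher (upward bars) or lower (downward bars) on the log2(FPKM + 0.1) scale in 6 comparisons, for the 173 receptor genes (blue), 196 Vmn1r genes (yellow), 1119 Olfr genes (red) and all 22552 genes (grey). In muscle the receptor genes have 21.4% and 26.6% higher and 17.9% and 14.5% lower in the Lbr and Lmna knockouts, and in myoblasts they lie under 4% in each direction.

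Olfactory and type 1 vomeronasal receptors, which were not part of the 173 genes, had similar shares in muscle. Of 1119 Olfr genes 26.1% rose and 19.9% fell in Lbr-knockout muscle, and 29.1% rose and 18.2% fell in Lmna-knockout muscle. Of 196 Vmn1r genes 24.5% rose and 17.9% fell in Lbr-knockout muscle, and 32.1% rose and 12.8% fell in Lmna-knockout muscle. In myoblasts 4.11% of Olfr genes rose and 1.25% fell in Lbr knockouts, and 1.61% rose and 1.34% fell in Lmna knockouts. The difference between the 173 genes and these families was not tested.

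Read from the silent state, 53 of 96 receptor genes (55.2%) at or under 0.1 FPKM in wild-type muscle exceeded 0.1 FPKM in Lbr-knockout muscle and 55 of 96 (57.3%) in Lmna-knockout muscle. Over all genes the shares were 32.5% and 38.5%, and over Vmn1r genes 35.5% and 44.0%. In the reverse reading, 38 of 81 receptor genes (46.9%) at or under 0.1 FPKM in Lbr-knockout muscle exceeded it in wild type, as did 31 of 72 (43.1%) from Lmna-knockout muscle. Over all genes the reverse shares were 25.9% and 25.1%. Passage across 0.1 FPKM was thus frequent in both directions. The share towards the knockout was the larger for the receptor genes and for all genes alike, and 1 fragment on a median Vmn2r gene lies above 0.1 FPKM in the knockouts and below it in wild type. The part of this uneven threshold in the shares was not tested. None of the 96 genes exceeded 1 FPKM in Lbr-knockout muscle, and Tas2r137 was the 1 that did in Lmna-knockout muscle. Over all 5494 such genes, 103 (1.87%) did in Lbr-knockout and 109 (1.98%) in Lmna-knockout muscle, so these counts are low for both sets.

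The genes were also taken by position, as 23 runs of neighbouring members in the RefSeq order on GRCm38.p6, with 170 of the 173 placed. In the largest, the 28 genes from Vmn2r90 to Vmn2r117 on chromosome 17, 16 exceeded 0.1 FPKM in Lbr-knockout and 20 in Lmna-knockout muscle, against 11 in wild type. Their summed FPKM was 3.59 and 4.17, against 2.0 in wild type, with 9 genes higher and 4 lower in Lbr knockouts and 12 higher and 4 lower in Lmna knockouts. The 9 genes from Vmn2r19 to Vmn2r27 on chromosome 6 had a summed 1.34 FPKM in Lbr-knockout and 1.08 FPKM in Lmna-knockout muscle, against 0.518 FPKM in wild type. There 5 genes were higher and 1 lower in Lbr knockouts, and 4 were higher and 0 lower in Lmna knockouts. Of all genes 10.2% were higher and 5.99% lower in Lbr-knockout muscle, and 12.3% and 5.84% in Lmna-knockout muscle.

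The 10 genes from Vmn2r8 to Vmn2r17 on chromosome 5 summed to 1.02 FPKM in Lbr-knockout and 0.938 FPKM in Lmna-knockout muscle, against 0.540 FPKM in wild type, with 6 genes above 0.1 FPKM in each knockout, against 3. Among shorter runs, the 4 genes from Vmn2r84 to Vmn2r87 on chromosome 10 summed to 0.834 FPKM in Lbr-knockout and 0.346 FPKM in Lmna-knockout muscle, against 0.353 FPKM in wild type. The pair Vmn2r88 and Vmn2r89 on chromosome 14 summed to 0.375 and 0.291 FPKM in the Lbr and Lmna knockouts, against 0.166 FPKM in wild type. The 4 genes from Vmn2r53 to Vmn2r56 on chromosome 7 summed to 0.257 and 0.725 FPKM in the Lbr and Lmna knockouts, against 0.337 FPKM in wild type. Each Vmn2r run, named here or not, had a higher sum than wild type in one knockout or in both. Some of them had a lower sum in the other knockout.

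The 25 genes from Vmn2r28 to Vmn2r52 on chromosome 7, which include Vmn2r29 and Vmn2r46, had 17 genes above 0.1 FPKM in each knockout muscle, against 18 in wild type. The 24 bitter receptors from Tas2r130 to Tas2r140 on chromosome 6 summed to 4.49 FPKM in Lbr-knockout and 3.53 FPKM in Lmna-knockout muscle, against 4.01 FPKM in wild type. The 8 genes from Tas2r137 to Tas2r126 on chromosome 6 summed to 1.16 and 3.33 FPKM in the Lbr and Lmna knockouts, against 2.12 FPKM in wild type. The Taar run on chromosome 10 was the one described above, lower in both knockouts. These runs were compared as counts and sums only, with no test of a difference between them.

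Genes that act downstream of the receptors were taken from lists by pathway. Of 5 vomeronasal signalling genes 0 rose and 0 fell in Lbr-knockout myoblasts, 1 rose in Lmna-knockout myoblasts, 2 fell in Lbr-knockout muscle, and 0 were called in Lmna-knockout muscle. Trpc2, the channel that carries the vomeronasal response, was at 0.597 FPKM in Lbr-knockout myoblasts and 0.716 FPKM in their wild type, and at 0.765 FPKM in Lbr-knockout and 1.03 FPKM in Lmna-knockout muscle, against 0.639 FPKM in wild type. Omp, the marker protein of mature olfactory and vomeronasal neurons, was at 0.299 FPKM or less in all 7 columns and listed at 0 in Lbr-knockout muscle.

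Of 7 olfactory and trace-amine signalling genes, 1 rose in each of Lbr-knockout myoblasts, Lmna-knockout myoblasts and Lbr-knockout muscle, 3 rose in Lmna-knockout muscle, and 0 fell. Gnal, the G protein subunit of olfactory neurons, was at 4.60 FPKM in Lbr-knockout myoblasts, against 1.16 FPKM in their wild type, and at 4.30 FPKM in Lmna-knockout myoblasts, against 1.04 FPKM in theirs, log2 differences of 1.90 and 1.95. In both pairs the knockout was higher. Cnga2, the olfactory cation channel, was listed at 0 in all 4 myoblast columns.

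Of 6 taste signalling genes, 1 rose in each myoblast knockout, and 2 rose and 1 fell in each knockout muscle. Plcb2, the phospholipase of the taste cascade and also present in blood cells, was at 1.19 FPKM in Lbr-knockout myoblasts, against 0.270 FPKM in their wild type, and at 0.441 FPKM in Lmna-knockout myoblasts, against 0.705 FPKM in theirs. In muscle it was at 0.685 FPKM in Lbr knockouts and 0.847 FPKM in Lmna knockouts, against 0.239 FPKM in wild type. Gnat3, the taste G protein gustducin, was at 0.512 FPKM in Lbr-knockout and 0.242 FPKM in Lmna-knockout muscle and listed at 0 in wild-type muscle.

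Markers of other cells also moved in muscle. All 4 B cell markers rose in Lbr-knockout muscle and 3 of 4 in Lmna-knockout muscle, with summed levels of 43.2 and 21.2 FPKM, against 8.95 FPKM in wild type. Schwann cell markers summed to 951 FPKM in Lbr-knockout and 588 FPKM in Lmna-knockout muscle, against 452 FPKM in wild type, with 2 and 1 of 5 higher. Macrophage markers summed to 42.4 and 40.9 FPKM, against 31.7 FPKM in wild type, and neuronal markers to 2.95 and 2.21 FPKM, against 2.05 FPKM. The part of these cells in the receptor values was not tested.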

How the data were processed

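RNA was measured in 12 samples, and the authors deposited 7 columns of FPKM, 1 per group. The genome build is mm9, per the submitters' processing notes. Aligner, quantification tool, annotation, strand setting and the joining of 2 samples into 1 column were not given in the sources used here, and total counts per sample are unknown. Each of the 7 columns was assigned to a group from its name, with 0 left over.

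Differences were taken on log2(FPKM + 0.1), a pseudocount of 0.1, with no filter. A log2 change of 1 took the place of a test. Myoblast knockouts were set against their own litter's wild type. limma 3.58.1 (R 4.3.3) was fitted to the 4 myoblast columns on that scale, with 1 residual degree of freedom. pandas 2.3.3 and Python 3.11.15 were used otherwise. The calculations were tested on simulated data, with changes placed in genes at about 1 FPKM or more in the wild type. That test does not cover the range near 0 in which most receptor values lie.

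Coding lengths, shared 50-base words and exon overlaps came from GENCODE M21, another build, for 170 of 173 genes. Estimated fragments are FPKM divided by the value of 1 fragment at that length. Runs join members up to 2 Mb apart.

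Named members are the 20 with the highest value, any above 1 FPKM, and the 4 largest differences each way per comparison among those called. Members and lists were chosen with earlier results of these data known.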

Additional observations from a re-analysis of the deposited data

How the results depend on the processing

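No paired analysis was possible because the table holds 1 column per group, and for the same reason leaving out single replicates and the replicate block were not run. Of the alternatives, 39 counts moved beyond 1.5 times the main count and 43 stayed within it. With a pseudocount of 0.01 the myoblast counts were 50 higher and 20 lower (Lbr; 16.4% and 4.59% of all genes) and 14 higher and 20 lower (Lmna; 8.42% and 6.47% of all genes). With a pseudocount of 1 they were 0 in each, and in muscle 0 higher and 0 lower (Lbr) and 1 higher and 0 lower (Lmna). Of all genes, that pseudocount gave 1.54% higher and 0.372% lower (Lbr) and 0.514% and 0.590% (Lmna) in myoblasts. In muscle it gave 1.14% and 0.532% (Lbr) and 1.52% and 0.825% (Lmna). With a mean of at least 0.1 FPKM, Lbr-knockout myoblasts had 1 higher and 0 lower of 5 members left (7.26% and 1.43% of all genes so filtered). Lmna-knockout myoblasts had 0 higher and 2 lower of 3 (2.94% and 2.60%). Lbr-knockout muscle had 21 higher and 22 lower of 93 (10.7% and 5.84%). Lmna-knockout muscle had 31 higher and 15 lower of 96 (13.0% and 5.72%). Without genes listed at 0 in either column, Lbr-knockout myoblasts had 1 higher and 0 lower of 37 members left (5.64% and 0.622% of all genes so filtered). Lmna-knockout myoblasts had 0 higher and 2 lower of 11 (1.93% and 1.73%). Lbr-knockout muscle had 7 higher and 9 lower of 82 (6.15% and 2.22%). Lmna-knockout muscle had 10 higher and 3 lower of 82 (7.59% and 2.57%). Scaling columns to a common median left 3 higher in Lbr-knockout myoblasts (5.05% of all genes). Against the other litter's wild type, or the mean of both wild types, 0 were lower in Lbr-knockout myoblasts, and against that mean 1 was lower in Lmna-knockout myoblasts. Of the alternatives added after the data were seen, at least 3 estimated fragments in the higher column left few members. Lbr-knockout myoblasts had 1 higher and 0 lower of 8 (6.43% and 1.31% of all genes so filtered). Lmna-knockout myoblasts had 0 higher and 2 lower of 6 (1.79% and 2.65%). Lbr-knockout muscle had 5 higher and 9 lower of 26 (5.09% and 2.64%). Lmna-knockout muscle had 7 higher and 8 lower of 27 (6.45% and 3.15%). The balance was not read, for the reason given above. Leaving out genes that share more than 50% of their words left 0 lower in Lmna-knockout myoblasts. In limma, a pseudocount of 1 gave 3 receptor genes for the Lmna knockout, and the filter on the mean gave 0 for both knockouts. The cause of these moves was not tested, except that the filter and the requirement of fragments leave fewer genes.

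An estimated level of 1 fragment sets the limit of these values. Of the members above 0, 62.9% in Lbr-knockout and 57.7% in Lmna-knockout muscle, against 52.8% in wild-type muscle, had under 1.5 estimated fragments.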

Other observations

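Most receptor values rest on about 1 estimated fragment in a column that stands for 1 or 2 samples, so the presence of a single gene in one column and not in another was not detectable as a difference between genotypes at this depth. Listed zeros can also be failed estimates: of 1492 genes above 20 FPKM in at least 6 columns, 2 were listed at 0 in the other.

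Outside the 173 genes, Olfr genes above 0 numbered 399 in Lbr-knockout myoblasts and 194 in their wild type, and 108 in Lmna-knockout myoblasts and 138 in theirs, the same order of columns as the receptor genes. Keratin-associated (Krtap) genes above 0.1 FPKM numbered 30 in Lbr-knockout and 20 in Lmna-knockout muscle, against 12 in wild-type muscle, of 51 genes. Prolactin family (Prl) genes numbered 9 in Lbr-knockout and 13 in Lmna-knockout muscle, against 6 in wild type, of 26. Defensin (Defb) genes numbered 1 in Lbr-knockout and 2 in Lmna-knockout muscle, against 5 in wild type, of 43. Pregnancy-specific glycoprotein (Psg) genes numbered 3 in Lbr-knockout and 7 in Lmna-knockout muscle, against 6 in wild type, of 13. The Obox, H2-M10 and Fpr-rs families, of 3 to 6 genes, had 0 to 3 genes above 0.1 FPKM in each muscle column.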
